A study of Homo sapiens with 21 samples.

Results

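GSK4716 is compared here with no treatment in MDA-MB-453 cells, a human breast cancer line, gene by gene. The genes described are those with a mean of at least 0.5 FPKM over the 6 libraries of the comparison, 13937 of the 58735 genes in the deposited table. FPKM is the number of sequenced fragments on a gene, scaled by the gene's length and by the size of the library. Cells of the GSK4716 group received 5 µM of the compound, dissolved in ethanol, for 24 h, and the control is labelled as untreated. The whole study holds 21 libraries, 3 for each of 7 treatments, all of wild-type cells that had first spent 24 h in phenol red-free medium with charcoal-stripped serum. Its labels call GSK4716 an agonist of the estrogen-related receptor ESRRB and DES an antagonist. Libraries were made from poly-A mRNA, and 28424805, 18431296 and 15246217 fragments lay on genes in the control libraries and 15681802, 16152211 and 21757684 in those with GSK4716. Beside the control, 2 further groups are set against GSK4716 directly below: calcium (10 mM, 24 h) and DES (10 µM, 24 h).

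The labels place GSK4716 and calcium in medium without serum. They give neither the medium nor the vehicle of the control, so GSK4716, the loss of serum and the ethanol cannot be told apart in the comparison with control. The labels describe library kits of more than 1 strand type, and for that reason a gene that overlaps a neighbour may carry fragments of that neighbour.

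The cells carry luminal apocrine markers, and the identity of the line was not tested. All 12 luminal apocrine markers on the list were present in all 6 libraries, with summed levels of 2877, 2540 and 3340 FPKM in the control and 2558, 3390 and 2401 FPKM with GSK4716. XBP1 was the most abundant of them, at 839, 689 and 926 FPKM in the control libraries and 719.9, 1002 and 589 FPKM with GSK4716. The estrogen receptor ESR1, which this line is known to lack, was at 0, 0.00683 and 0 FPKM and 0, 0.0203 and 0.0151 FPKM. The 15 markers of other cell types summed to between 9.92 and 12.3 FPKM per library, nearly all of it COL1A1 (9.74 to 12.0 FPKM), and 4 to 9 of them were at 0.

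Estrogen-related receptors are nuclear receptors that are widely held to act without a natural ligand. The paper proposes calcium as a natural ligand of ESRRB. ESRRA and ESRRG are known above all for driving genes of the tricarboxylic acid cycle, fatty acid oxidation and the respiratory chain, with PGC-1 family coactivators. The paper links ESRRB instead to pluripotency and self-renewal in stem cells. E2F proteins switch on the genes for DNA replication when a cell passes from G1 into S phase, and RB family proteins hold them back. SREBP2 (gene SREBF2) drives the enzymes of cholesterol synthesis when sterols in the membrane of the endoplasmic reticulum run low. Stress in that compartment starts the unfolded protein response, and several kinds of stress meet in the integrated stress response, in which translation of ATF4 goes up.

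Control replicate 3 lay farthest from the mean of the control libraries, followed by control replicate 2. On the G1/S list these 2 libraries lay about as far out on opposite sides, at -0.50 and 0.50. The median distance of a gene from the mean of the other libraries of its group was 0.147, 0.228 and 0.272 on the log2 scale in the control. With GSK4716 it was 0.212, 0.239 and 0.208. Control replicate 3 lay inside the range of the GSK4716 libraries on several lists, some of them in the plot of lists in each library. The integrated stress response, NRF2, aryl hydrocarbon receptor, metallothionein, immediate early, MAP kinase feedback and lysosome lists are among them. On the G1/S, replication and ribosome biogenesis lists it was the control library closest to GSK4716, while on the list of the unfolded protein response it did not stand apart. For the integrated stress response the median difference of the members from the control mean was -0.05, -0.31 and 0.43 in the control and 1.09, 0.36 and 1.33 with GSK4716. For the targets of the oxidative stress factor NRF2 it was -0.28, -0.50 and 0.81 in the control and 0.30, 0.11 and 1.05 with GSK4716. Some counts and lists below are therefore also given without control replicate 3 or with each library left out. The spread between libraries that enters each p may be technical, since the labels do not say whether replicates were separate cultures.

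**Figure D1:**
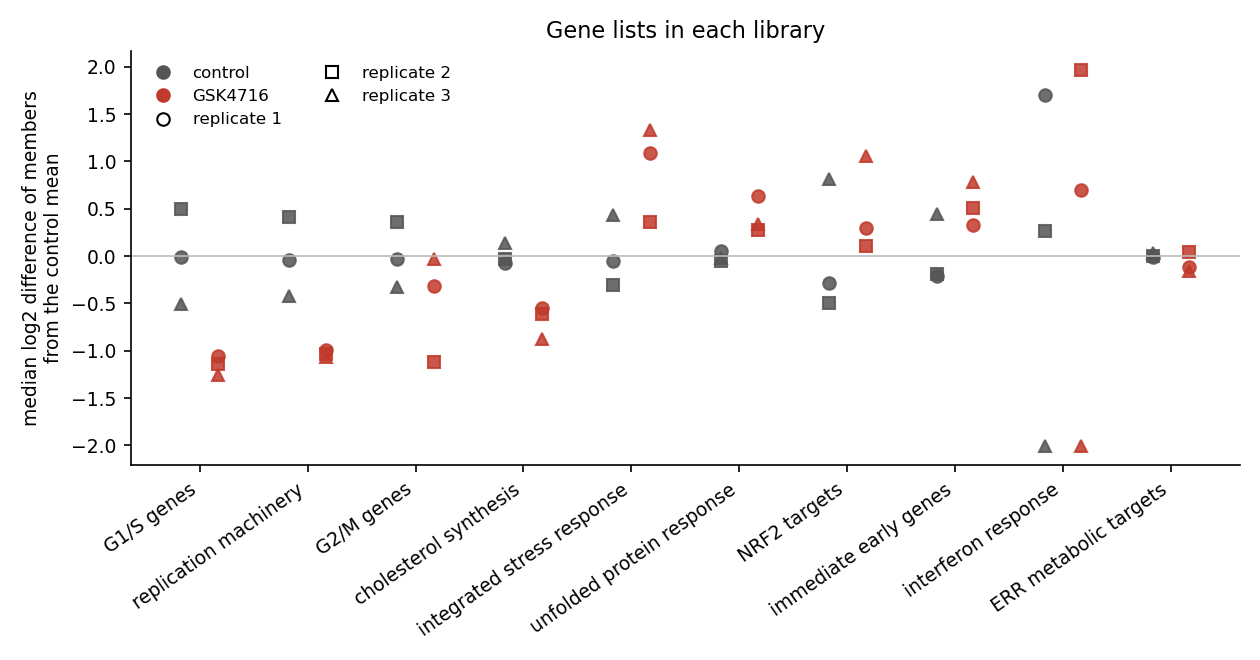
Median over the members of a gene list of the log2 difference from the mean of the control, in each of the 6 libraries. The G1/S, replication and cholesterol lists separate the groups, while control replicate 3 lies near the GSK4716 libraries on the integrated stress response, NRF2 and immediate early lists.

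Promoter sequences are shown for genes that were lower together with GSK4716 and that are textbook targets of E2F. RefSeq promoters (GRCh38.p14, 250 bases before to 50 bases after the start of the gene) were matched to 9417 of the 13937 genes tested. The letters searched on both strands were TTTCGCGC, TTTGGCGC, TTCCCGCC and TTTCCCGC, forms of the E2F element that can overlap each other. At least 1 of them was found in 830 of the 9417 promoters (8.81%), in 22 of the 32 promoters of G1/S genes (68.8%) and in 21 of the 35 promoters of replication genes (60%). These lists were drawn up from knowledge of the cell cycle, with earlier results of these data known, and E2F targets are common among such genes. Genes not shown that differed in other ways hold these letters too. UBR7 overlapped between the groups (log2 fold change -0.30), and PAWR (0.98) and CTSD (0.51) were above 0. A match is a description of the letters and neither a binding site nor a cause. The windows below end before the RefSeq start of the gene, with the matched letters in capitals. In the deposited annotation GINS2 starts farther upstream, so its window lies inside that gene. PCNA (chr20:5126634-5126722, minus strand) and GINS2 (chr16:85688955-85689026, minus strand) each hold a run of 9 letters in which TTTCCCGC and TTCCCGCC overlap on the other strand. MYCN (chr2:15940334-15940425, plus strand) and MCM6 (chr2:135876482-135876635, minus strand) hold TTTGGCGC run into the reverse of TTTCGCGC, and MCM6 holds that run 2 times. TYMS (chr18:657574-657652, plus strand) and UHRF1 (chr19:4909357-4909500, plus strand) complete the set, and MCM6, TYMS and UHRF1 were chosen after their values were seen.
PCNA: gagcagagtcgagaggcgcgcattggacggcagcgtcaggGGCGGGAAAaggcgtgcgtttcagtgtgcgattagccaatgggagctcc
GINS2: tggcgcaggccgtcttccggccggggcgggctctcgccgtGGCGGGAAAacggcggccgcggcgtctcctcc
MYCN: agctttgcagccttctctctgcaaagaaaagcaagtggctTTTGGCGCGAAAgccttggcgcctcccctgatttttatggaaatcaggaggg
MCM6: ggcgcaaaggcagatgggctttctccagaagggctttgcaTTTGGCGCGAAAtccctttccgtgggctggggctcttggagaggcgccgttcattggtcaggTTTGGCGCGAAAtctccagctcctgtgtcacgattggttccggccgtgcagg
TYMS: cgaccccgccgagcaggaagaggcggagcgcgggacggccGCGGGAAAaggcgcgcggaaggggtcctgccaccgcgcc
UHRF1: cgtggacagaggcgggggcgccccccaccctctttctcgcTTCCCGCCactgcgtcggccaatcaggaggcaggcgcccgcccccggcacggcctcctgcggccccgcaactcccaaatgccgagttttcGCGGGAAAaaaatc

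Letters of 2 other elements were searched in the same promoters. The element of estrogen-related receptors, TNAAGGTCA, was in 44 of the 9417 promoters (0.467%), in 0 of the 18 promoters of ERR metabolic targets and in 0 of the 7 of ERR family and coregulator genes. A sterol element, TCACNCCAC, was in 104 of the 9417 (1.1%) and in 1 of the 18 promoters of the cholesterol list, that of SREBF2 itself (chr22:41832932-41833020, plus strand), shown here for its place in that pathway. No match says only that these letters are not in the window of 300 bases.
SREBF2: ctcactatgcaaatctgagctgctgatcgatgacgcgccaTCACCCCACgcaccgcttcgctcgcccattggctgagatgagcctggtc

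With GSK4716, 0 of the 13937 genes were called at an adjusted p under 0.05 (limma, Benjamini-Hochberg over all genes tested), 0% of them. The smallest adjusted p was 0.0938, and 82 genes share it. At an unadjusted p under 0.05 limma found 2339 genes (16.8%), of which 1101 were higher with GSK4716 (7.9%) and 1238 lower (8.88%). For 3171 genes (22.8%) the 3 GSK4716 libraries all lay on the same side of the 3 control libraries, 1520 higher (10.9%) and 1651 lower (11.8%); these shares are the background for each count of genes without overlap below. limma-voom on the recovered fragments called 89 genes (0.639%), 36 higher (0.258%) and 53 lower (0.38%). These shares are the background for each count of limma-voom calls below. Their log2 fold changes ran from -1.83 to 2.16, and their limma adjusted p was at most 0.135. The groups overlapped for 0 of these 89 genes.

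Without control replicate 3, limma called 106 of the 13937 genes tested, 47 higher and 59 lower. These numbers are the background for the calls of that fit below. Of the 89 limma-voom calls 46 were among the 106. With any of the other 5 libraries left out, limma called 0 genes. With limma's arrayWeights the number was 1286, but the estimate of the weights stopped before it converged, and control replicate 1 received a weight of 7.79 against 0.426 to 0.945 for the other 5 libraries. Over all genes tested the median log2 fold change was -0.00, and 49.7% were above 0. The log2 fold change was 1 or more in either direction for 703 genes. Below, "left out" before a range gives the lowest and highest value when each of the 6 libraries is left out in turn. On the log2 scale the standard deviation of the median gene was 0.211 in the control and 0.214 with GSK4716.

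**Figure D2:**
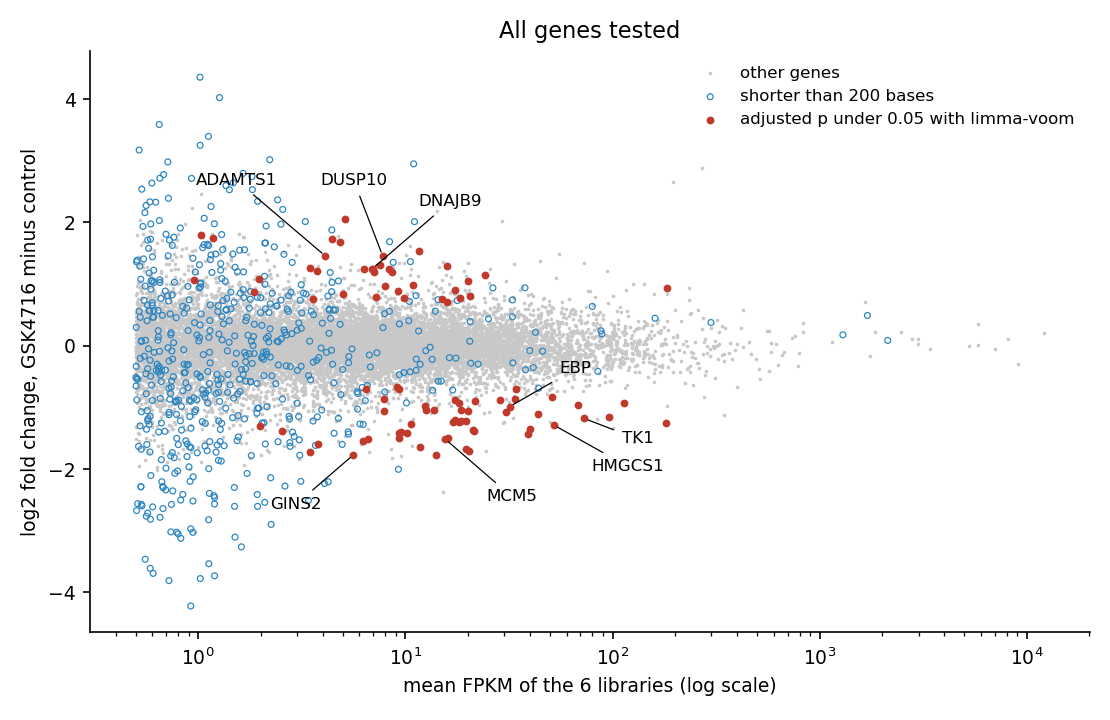
Each point is a gene tested: its mean level over the 6 libraries against its log2 fold change. Genes with an adjusted p under 0.05 in limma-voom lie mostly above 1 FPKM. Among genes with a mean of at least 1 FPKM and no overlap, the 5 largest fold changes each way belong to genes shorter than 200 bases.

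The receptor that the labels give as the target of GSK4716 is near the limit of detection in these cells. ESRRB was at 0.0261, 0.0878 and 0.0408 FPKM in the control and at 0.0286, 0.0285 and 0.0495 FPKM with GSK4716, under the filter. The groups overlap, and an exact permutation test of the 6 libraries gives p = 0.700 (3 against 3 libraries cannot give less than 0.1). ESRRG, the other receptor that GSK4716 is known to act on, was also under the filter, at 0.360, 0.464 and 0.255 FPKM in the control and 0.342, 0.232 and 0.311 FPKM with GSK4716 (exact permutation p = 0.400). ESRRA was the estrogen-related receptor with the highest level, 21.6, 23.3 and 31.2 FPKM in the control and 20.1, 33.5 and 25.7 FPKM with GSK4716. Its values overlap between the groups, with a log2 fold change of 0.05 (left out -0.14 to 0.23, adjusted p 0.940).

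Of the 13 ERR family and coregulator genes 9 were tested, with a median log2 fold change of 0.00 (left out -0.075 to 0.047) beside -0.00 for all genes. For 2 of the 9 the groups did not overlap, beside 22.8% of all genes: NCOA2 and NCOA3, both higher and both steroid receptor coactivators. NCOA3 stood at 11.6, 9.90 and 10.7 FPKM in the control and 13.7, 12.9 and 12.0 FPKM with GSK4716, a log2 fold change of 0.26. PPRC1, a coactivator related to PGC-1, was at 7.93, 9.49 and 8.13 FPKM in the control and 5.93, 6.56 and 8.38 FPKM with GSK4716 (log2 fold change -0.30, left out -0.44 to -0.19). PPARGC1A was under the filter with a control mean of 0.175 FPKM. NCOA2, NCOA3 and PPARGC1A are named after their values were seen.

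Metabolic genes known as ERR targets showed small differences. The median log2 fold change of the 23 tested was -0.06 (left out -0.12 to -0.041), between -0.32 and 0.61, with 19 below 0. The groups did not overlap for 2 of the 23, both lower, where the share over all genes lower in this way is 11.8%. FH, fumarate hydratase of the tricarboxylic acid cycle, was one of them, at 76.0, 79.6 and 69.6 FPKM in the control and 63.4, 65.0 and 52.0 FPKM with GSK4716 (log2 fold change -0.32, adjusted p 0.278). ATP5F1B, a subunit of ATP synthase and the most abundant gene of the list, had 383, 393 and 352 FPKM in the control and 326, 354 and 274 FPKM with GSK4716. Only GSK4716 replicate 2 reaches into the control range, at a log2 fold change of -0.25 (left out -0.33 to -0.15). The channel VDAC1 of the outer mitochondrial membrane, at 105, 102 and 98.5 FPKM and 86.1, 119 and 75.9 FPKM, overlaps between the groups (-0.15, left out -0.33 to -0.011). FABP3, a fatty acid binding protein at low level, was highest in GSK4716 replicate 2, with 0.995, 1.11 and 0.590 FPKM in the control and 1.05, 2.31 and 1.06 FPKM with GSK4716. Its log2 fold change of 0.61 (left out 0.25 to 0.79) is the highest of the list. The 13 mitochondrial protein genes had a median of 0.03 (left out -0.17 to 0.23), and the groups overlapped for all 13 of them.

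Of the genes that the study followed by qPCR beside ESRRB, only KLF4 passed the filter. This pluripotency factor was at 5.29, 3.95 and 7.53 FPKM in the control and 8.496, 11.1 and 10.05 FPKM with GSK4716. All 3 GSK4716 values lie above the control, with a log2 fold change of 0.85 and an adjusted p of 0.170. POU5F1, under the filter, was at 0.342, 0.539 and 0.397 FPKM in the control and lower in each GSK4716 library, at 0.215, 0.117 and 0.0435 FPKM (exact permutation p = 0.1). It overlaps TCF19 on the other strand, which was itself lower, with 19.8, 32.9 and 18.8 FPKM in the control and 8.02, 9.06 and 7.38 FPKM with GSK4716. How many POU5F1 fragments come from TCF19 was not tested. SOX2 had 0.0616, 0 and 0.0241 FPKM in the control and 0, 0.0897 and 0 FPKM with GSK4716, while NANOG and PRL were listed at 0 in all 6 libraries, which allows up to 0.0337 FPKM for NANOG (3 fragments). SFRP2, IGF1 and DPT did not pass 0.03 FPKM in any of them. The paper reports by qPCR, a different assay, that GSK4716 induced ESR1 in these cells. Here ESR1 was under the filter, with 0, 2 and 0 fragments in the control and 0, 5 and 5 with GSK4716. The reference gene RPLP0 was even, at 295, 295 and 326 FPKM in the control and 309, 289.9 and 312 FPKM with GSK4716 (log2 fold change -0.01, with values from -0.03 to 0.05 under the alternatives).

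Genes of DNA replication and of the G1/S transition were lower with GSK4716 in nearly every case. All 42 G1/S genes tested had a log2 fold change below 0, with a median of -1.12, and for 36 of them the groups did not overlap, where 11.8% of all genes tested were lower in this way. All 42 genes of the replication machinery were below 0 as well, with a median of -1.05, and 41 of them did not overlap. The median difference of the G1/S genes from the control mean was -0.01, 0.50 and -0.50 in the control libraries and -1.05, -1.15 and -1.26 with GSK4716. For the replication genes it was -0.04, 0.41 and -0.42 and -0.997, -1.03 and -1.07, so that the controls spread widely on both lists without reaching the treated libraries. With 1 library left out the list medians ran from -1.38 to -0.81 and from -1.20 to -0.83. The lists share 17 genes, 17 of 42 in each. They hold 67 genes, of which limma called 0 and limma-voom called 19, all lower, beside 0.38% of all genes tested. Without control replicate 3, the control library closest to GSK4716 on both lists, limma called 16 of the 42 on each, all lower. Over all 13937 genes tested that fit called 59 lower. With any other library left out limma called 0 genes. In a bulk culture, fewer cells in S phase and less of these transcripts in each cell cannot be told apart.

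MCM5, a subunit of the DNA helicase of replication, was at 22.9, 27.6 and 18.8 FPKM in the control and at 7.34, 9.16 and 7.44 FPKM with GSK4716. No GSK4716 library came within 9 FPKM of a control library; the log2 fold change was -1.51, with an adjusted p of 0.0938 in limma and 0.0367 in limma-voom. ORC1, which marks origins for loading of the helicase, had 7.67, 11.6 and 8.68 FPKM in the control and 3.17, 2.52 and 3.70 FPKM with GSK4716. Every GSK4716 value is under every control value, at a log2 fold change of -1.54 (limma-voom adjusted p 0.0422). CDC45 and GINS2 belong to the active form of the helicase. For CDC45 the libraries gave 19.0, 32.1 and 14.9 FPKM in the control and 6.95, 6.49 and 4.97 FPKM with GSK4716, and control replicate 2 stands highest. GINS2 was at 8.996, 11.3 and 6.08 FPKM in the control and 2.36, 2.61 and 2.34 FPKM with GSK4716, with the treated libraries close to each other. CDC45 and GINS2 had the lowest log2 fold changes of both lists, -1.77 and -1.77.

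Next come polymerases, clamp and nucleotide supply. PCNA, the sliding clamp and the most abundant gene of both lists, was at 126, 175 and 102 FPKM in the control and 60.1, 64.9 and 52.3 FPKM with GSK4716. The groups are separate, and the log2 fold change of -1.15 had an adjusted p of 0.103 in limma and 0.0442 in limma-voom. RFC2 of the clamp loader gave 26.1, 31.7 and 20.47 FPKM in the control and 12.0, 9.86 and 11.2 FPKM with GSK4716, again with no overlap (-1.22). POLD1, the catalytic subunit of DNA polymerase delta, had 17.1, 21.7 and 16.9 FPKM without the compound and 7.78, 10.2 and 8.88 FPKM with it (-1.04). Control replicate 2 is the highest library for each of PCNA, RFC2 and POLD1. TK1 makes thymidine monophosphate and stood at 90.1, 119.7 and 94.4 FPKM in the control and 42.0, 44.1 and 47.2 FPKM with GSK4716. Its treated libraries lie within 6 FPKM of each other, at a log2 fold change of -1.18. TONSL, a repair factor for stalled forks, was at 24.2, 29.2 and 19.4 FPKM in the control and 9.76, 9.74 and 11.5 FPKM with GSK4716, with all treated values under the control (-1.21). UBR7 was among the exceptions on the G1/S list, at 38.7, 37.4 and 30.3 FPKM in the control and 28.0, 37.5 and 22.4 FPKM with GSK4716, where GSK4716 replicate 2 lies inside the control range (-0.30, left out -0.49 to -0.12).

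**Figure D3:**
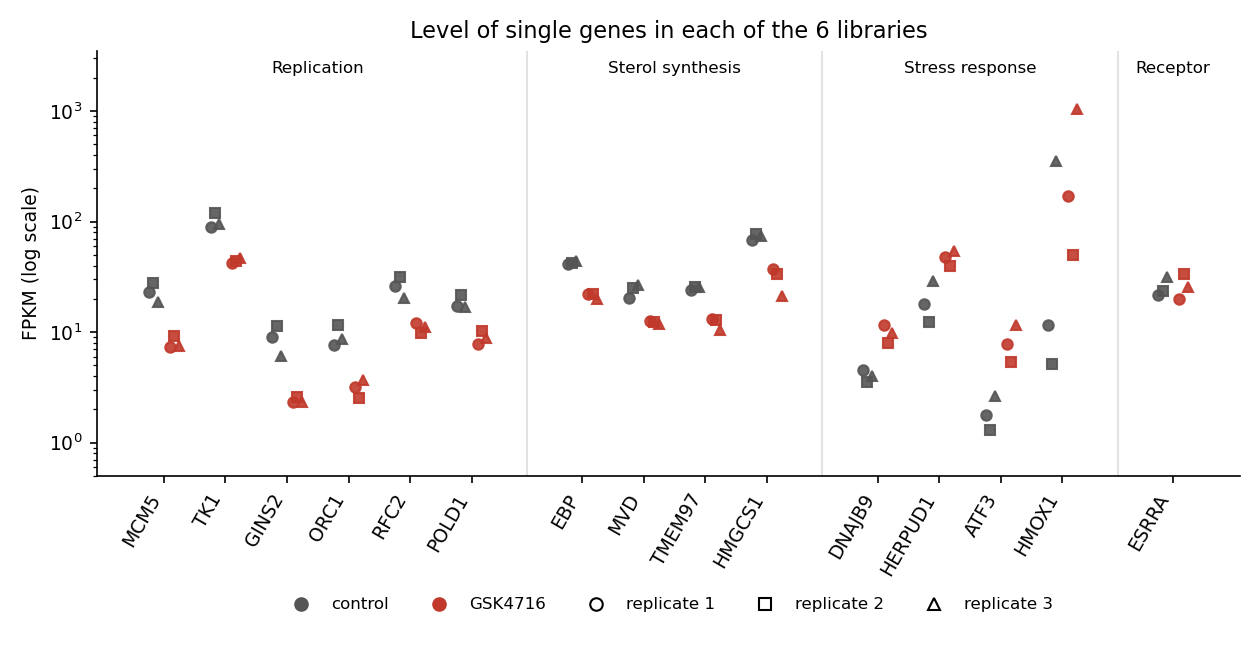
Level of 15 genes in each library, on a log axis. Replication and sterol genes lie lower with GSK4716, DNAJB9, HERPUD1 and ATF3 lie higher, HMOX1 is high in both replicates 3, and ESRRA overlaps between the groups.

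Regulators upstream of these genes had a median log2 fold change of -0.48 (left out -0.61 to -0.38) over the 22 tested. Of these, 12 were lower and 2 higher with no overlap; over all genes the shares are 11.8% and 10.9%. CCNE1, cyclin E, was at 2.81, 5.27 and 1.64 FPKM in the control and 0.731, 0.906 and 0.708 FPKM with GSK4716. Its treated libraries are all lower, and control replicate 2 is about 2 to 3 times the other controls (-1.78, adjusted p 0.131). MYCN was even among the control libraries, 1.03, 1.04 and 1.07 FPKM, and lower in each with GSK4716, 0.413, 0.238 and 0.210 FPKM (-1.60). CCND1, cyclin D1, is the most abundant of the list, with 114, 115 and 95.4 FPKM in the control and 71.6, 86.6 and 72.1 FPKM with GSK4716. It is lower in all 3 treated libraries, by less than CCNE1 (-0.50). The CDK inhibitor CDKN1B, p27, was one of the 2 higher genes, at 45.5, 48.1 and 41.7 FPKM in the control and 60.8, 49.4 and 58.9 FPKM with GSK4716 (0.32). E2F1 and E2F2 were the 2 limma-voom calls of the list and are named after their values were seen. E2F1 had 48.7, 67.6 and 53.5 FPKM in the control and 15.7, 28.2 and 19.7 FPKM with GSK4716 (log2 fold change -1.44, limma-voom adjusted p 0.0422). RB1 itself was near 0 (-0.10), while its relatives RBL1 and RBL2 had log2 fold changes of -1.21 and 0.26. None of these 3 was called by limma, and they were also chosen with values known.

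Of the 54 genes of G2 and mitosis tested, 51 had a log2 fold change below 0, with a median of -0.47. That median ran from -0.68 to -0.16 with 1 library left out, nearest 0 without GSK4716 replicate 2. Groups without overlap were found for 9 lower and 0 higher, beside 11.8% and 10.9% of all genes, and limma and limma-voom each called 0. The median difference from the control mean was -0.03, 0.36 and -0.33 in the control libraries and -0.32, -1.12 and -0.03 with GSK4716, so that GSK4716 replicate 2 stands lowest and GSK4716 replicate 3 lies at the control mean. TOP2A, topoisomerase II, was at 18.7, 25.9 and 8.92 FPKM in the control and 11.6, 5.28 and 7.54 FPKM with GSK4716. Control replicate 3 lies between the treated libraries there, at a log2 fold change of -1.07 and an adjusted p of 0.277. AURKB, a mitotic kinase, had 9.25, 15.5 and 7.59 FPKM in the control and 5.30, 3.62 and 5.71 FPKM with GSK4716 and does not overlap (-1.09). The tubulin TUBB4B is the most abundant of the list, at 354, 420.2 and 289 FPKM in the control and 229.7, 181 and 182 FPKM with GSK4716 (-0.84). JPT1 differed less, with 129.8, 143 and 132 FPKM in the control and 107, 128 and 107 FPKM with GSK4716 (-0.24).

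Cholesterol synthesis was another list with all members below 0. The 24 genes tested had a median log2 fold change of -0.67 (left out -0.73 to -0.53). For 18 of them the groups did not overlap, all lower, beside 11.8% of all genes tested. limma-voom called 6, all lower, beside 0.38% of all genes tested. Without control replicate 3 the median was -0.53, and limma called 1 of the 24, lower, beside 59 of all 13937 genes tested. In the order of the pathway, ACAT2 condenses acetyl-CoA and was at 13.005, 14.4 and 12.99 FPKM in the control and 7.13, 3.88 and 4.48 FPKM with GSK4716. The control libraries lie close together, and the log2 fold change of -1.41 is the lowest of the list (limma-voom adjusted p 0.0422). ACAT2 overlaps TCP1 on the other strand. HMGCS1, the next enzyme, had 67.9, 77.7 and 73.9 FPKM in the control and 37.5, 33.6 and 21.3 FPKM with GSK4716. Replicate 3 is the lowest of the treated libraries, at a log2 fold change of -1.29.

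Further along, MVD makes isopentenyl diphosphate and stood at 20.2, 24.8 and 26.5 FPKM in the control and 12.7, 12.5 and 12.0 FPKM with GSK4716. The treated libraries lie within 1 FPKM of each other, at a log2 fold change of -0.93 (adjusted p 0.0938 in limma and 0.0422 in limma-voom). EBP, a sterol isomerase, had the smallest p of the genes lower with GSK4716, at 40.9, 42.0 and 44.4 FPKM in the control and 22.2, 21.9 and 19.98 FPKM with it. Its values are tight in each group and far apart between them (-0.99, adjusted p 0.0938 in limma and 0.0367 in limma-voom). TMEM97, a sterol-regulated membrane protein outside the list, was at 23.9, 25.8 and 25.6 FPKM and 13.2, 12.9 and 10.5 FPKM (-1.04); IFT20, which it overlaps on the other strand, had a log2 fold change of 0.34. For DHCR7, a sterol reductase late in the pathway, the values were 102, 106 and 146 FPKM in the control and 82.9, 89.6 and 65.0 FPKM with GSK4716, and control replicate 3 is the highest (-0.57). The list's regulator SREBF2 had a log2 fold change of -0.02, with overlap; it is named after its values were seen.

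Fatty acid synthesis had a median of -0.54 over 11 genes (left out -0.64 to -0.28), 6 of them lower with no overlap. FASN, fatty acid synthase, was at 476, 405 and 537 FPKM in the control and 198, 284 and 176 FPKM with GSK4716. All treated libraries are lower, at a log2 fold change of -1.13 (adjusted p 0.107 in limma and 0.0561 in limma-voom). SCD, which makes monounsaturated fatty acids, gave 552, 609.7 and 625 FPKM in the control and 414, 598 and 278 FPKM with GSK4716, where replicate 2 of the treated libraries lies inside the control range (-0.54, left out -0.81 to -0.26). ACSS2, which makes acetyl-CoA from acetate, had 11.9, 19.0 and 18.6 FPKM in the control and 9.01, 11.9 and 7.73 FPKM with GSK4716 and overlaps at the edge (-0.77). Among 6 targets of the oxysterol receptor LXR, 2 were higher and 1 lower with no overlap, at a median of 0.10 (left out 0.025 to 0.23). The sterol exporter ABCG1 was at 13.2, 9.67 and 16.04 FPKM in the control and 19.6, 25.2 and 23.3 FPKM with GSK4716 (0.82). MYLIP, a ubiquitin ligase, was at 8.63, 7.93 and 8.20 FPKM in the control and 13.9, 12.7 and 11.9 FPKM with GSK4716, higher in each treated library (0.62, adjusted p 0.103).

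**Figure D4:**
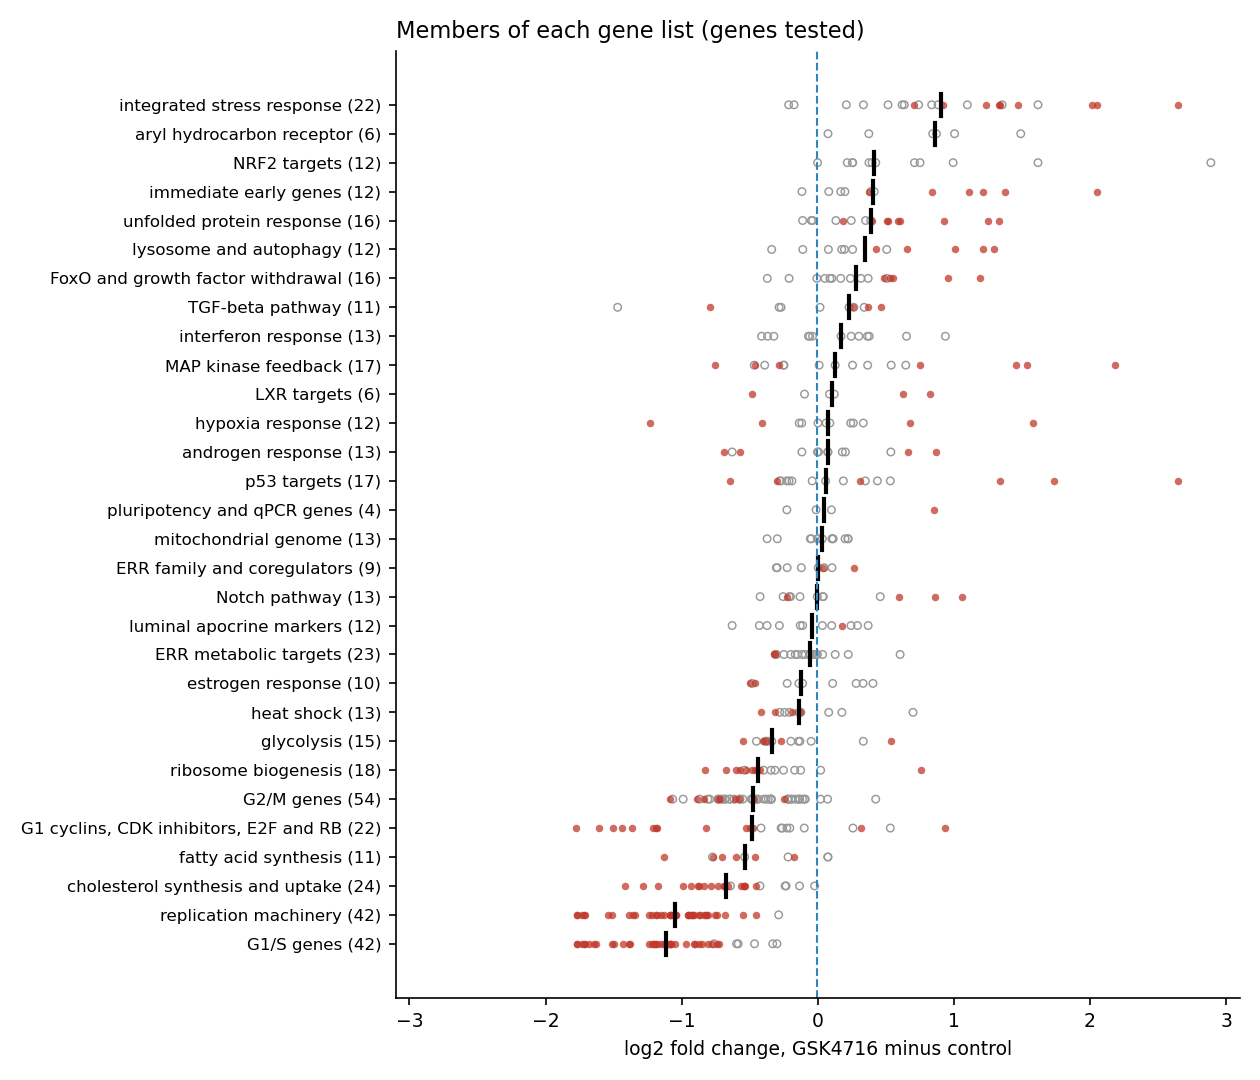
Log2 fold change of each tested member of 30 gene lists, with the number tested in brackets; filled points are members whose groups do not overlap, black bars are list medians, and the dashed line is the median of all genes tested. The G1/S, replication and cholesterol lists lie wholly below 0, and the integrated stress response has the highest median.

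Integrated stress response genes had the highest median of the 32 lists in the planned fit, 0.90 over 22, with 20 above 0. For 9 of them the groups did not overlap, all higher, where 10.9% of all genes tested were higher in this way. limma-voom called 1, higher, beside 0.258% of all genes tested. Without control replicate 3 limma called 2 of the 22, both higher, beside 47 of all 13937 genes tested. With 1 library left out the median ran from 0.69 to 1.22, the highest being that without control replicate 3. The metallothionein and aryl hydrocarbon receptor lists, at 0.89 and 0.86 in the planned fit, then reached up to 1.31 and 1.23, so the rank is not fixed. ATF4 itself was at 158, 129.7 and 213 FPKM in the control and 347, 143 and 411 FPKM with GSK4716. GSK4716 replicate 2 lies inside the control range, at a log2 fold change of 0.74 (left out 0.45 to 1.21, adjusted p 0.398). ATF3, a target of ATF4 and the limma-voom call, had 1.78, 1.30 and 2.67 FPKM in the control and 7.89, 5.42 and 11.6 FPKM with GSK4716. It was at least 2 times as high in every treated library as in any control (2.05, adjusted p 0.0938 in limma and 0.0422 in limma-voom). The secreted stress hormone GDF15 had 29.4, 25.8 and 139 FPKM in the control and 251, 191 and 545 FPKM with GSK4716. Control replicate 3 is far above the other controls and below each treated library; the log2 fold change was 2.65, or 2.21 to 3.42 with 1 library left out. DDIT3, also called CHOP and named after its values were seen, was at 10.2, 6.34 and 17.9 FPKM in the control and 53.6, 22.8 and 63.9 FPKM with GSK4716 (2.02).

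Unfolded protein response genes had a median of 0.39 over 16 (left out 0.22 to 0.48), of which 9 were higher with no overlap, 0 lower, and 2 called by limma-voom. Over all genes tested 10.9% were higher with no overlap, and limma-voom called 0.258% higher. Control replicate 3 did not stand apart on this list, where the median difference from the control mean was 0.05, -0.05 and -0.03 in the control and 0.63, 0.27 and 0.34 with GSK4716. DNAJB9, a cochaperone induced through IRE1 and XBP1, was at 4.54, 3.57 and 4.03 FPKM in the control and 11.7, 8.04 and 9.76 FPKM with GSK4716. Each treated library is above each control, at a log2 fold change of 1.25 (adjusted p 0.0938 in limma and 0.0422 in limma-voom). It overlaps THAP5 and PNPLA8 on the other strand, whose log2 fold changes were 0.63 and 0.30. HERPUD1, of the pathway that degrades misfolded proteins, had 17.97, 12.3 and 28.9 FPKM in the control and 47.9, 39.7 and 54.5 FPKM with GSK4716 and does not overlap (1.33). HSPA5, the chaperone BiP and the other limma-voom call, is named after its values were seen: 133, 120.0 and 123 FPKM in the control and 279, 208.4 and 233 FPKM with GSK4716 (0.93, limma-voom adjusted p 0.0422). XBP1 and CALR, the 2 most abundant of the list, overlapped between the groups. CALR, calreticulin, was at 318, 307 and 316 FPKM in the control and 306, 337 and 277 FPKM with GSK4716 (-0.04, left out -0.11 to 0.034), and XBP1 had a log2 fold change of -0.11 (left out -0.32 to 0.065).

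NRF2 targets had a median of 0.41 over 12 genes (0.16 to 0.81 with 1 library left out) with 11 above 0, yet the groups overlapped for all 12. HMOX1, heme oxygenase, showed the widest range, 11.6, 5.20 and 349 FPKM in the control and 169, 49.7 and 1035 FPKM with GSK4716. Replicate 3 is by far the highest in both groups, so a log2 fold change of 2.89 came with an adjusted p of 0.433. With 1 library left out it ran from 1.69 to 4.71, the highest without control replicate 3. Replicate 3 was highest in each group for the cystine carrier SLC7A11 as well, with 3.54, 2.26 and 8.82 FPKM in the control and 15.2, 5.06 and 28.0 FPKM with GSK4716 (1.62, left out 1.06 to 2.29). NQO1 had 238, 194 and 509 FPKM in the control and 269, 313 and 437 FPKM with GSK4716, with overlap (0.22, left out -0.064 to 0.63). Of the metallothioneins 3 were tested, with a median of 0.89 and 0.33 to 1.31 when 1 library was left out. MT1F was higher in each treated library, 1.52, 1.20 and 3.01 FPKM in the control and 3.74, 3.97 and 4.42 FPKM with GSK4716 (1.14). MT2A stood at 62.0, 24.1 and 92.7 FPKM and 86.3, 85.4 and 118 FPKM and overlaps, since control replicate 3 is above 2 of the treated libraries (0.89, left out 0.33 to 1.31). Aryl hydrocarbon receptor genes had a median of 0.86 over 6, with overlap for all 6 and a range of 0.32 to 1.23 when 1 library was left out. CYP1A1 had 58.4, 29.0 and 212 FPKM in the control and 105, 126 and 221 FPKM with GSK4716, with replicate 3 highest in both groups (1.00, or 0.36 to 1.79 with 1 library left out). Heat shock genes had a median of -0.14 (left out -0.20 to -0.11) over 13, with 4 lower and 0 higher without overlap; HSPA8 was at 295, 359.8 and 310.5 FPKM in the control and 251, 197 and 279 FPKM with GSK4716 (-0.42, left out -0.53 to -0.27). HSPB1, the member with the largest fold change in size, lay the other way, at 59.5, 55.7 and 100.3 FPKM in the control and 81.9, 98.7 and 176 FPKM with GSK4716, with overlap (0.70, left out 0.38 to 0.97).

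The 17 MAP kinase feedback genes had a median of 0.13 (left out -0.046 to 0.24), with 4 higher and 3 lower without overlap (10.9% and 11.8% over all genes), and limma-voom called 2, DUSP10 and DUSP8, both higher. DUSP10 had the smallest p of the genes higher with GSK4716, at 4.36, 3.35 and 4.65 FPKM in the control and 11.7, 12.5 and 10.1 FPKM with GSK4716. The groups are more than 5 FPKM apart (1.46, adjusted p 0.0938 in limma and 0.0367 in limma-voom). DUSP8 gave 5.36, 4.65 and 7.88 FPKM in the control and 13.6, 18.4 and 19.7 FPKM with GSK4716, with no overlap (1.54). It overlaps KRTAP5-AS1 on the other strand, which limma-voom also called, with a log2 fold change of 1.80. For DUSP1 the libraries held 4.24, 2.39 and 10.5 FPKM in the control and 18.2, 31.3 and 18.8 FPKM with GSK4716, and control replicate 3 is closest to the treated ones (2.19). DUSP16 was at 21.8, 17.2 and 22.1 FPKM in the control and 34.6, 37.8 and 30.4 FPKM with GSK4716 (0.75). DUSP6, which answers to ERK and is named after its values were seen, had a log2 fold change below 0, at 21.4, 37.8 and 23.6 FPKM in the control and 15.2, 15.7 and 16.4 FPKM with GSK4716 (-0.76).

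Immediate early genes had a median of 0.40 over the 12 tested, 6 of them higher with no overlap and 0 lower. With 1 library left out that median ran from 0.40 to 0.73. By library the median difference from the control mean was -0.21, -0.19 and 0.44 in the control and 0.33, 0.51 and 0.79 with GSK4716, where control replicate 3 lies above GSK4716 replicate 1. JUN, a subunit of the factor AP-1, was at 16.97, 19.1 and 41.7 FPKM in the control and 45.9, 66.4 and 78.6 FPKM with GSK4716. Control replicate 3 comes within 5 FPKM of the lowest treated library (1.38, adjusted p 0.160). JUND had 99.4, 96.7 and 151 FPKM in the control and 195, 189 and 225 FPKM with GSK4716 (0.84), again without overlap. IER3, a survival factor, overlaps, with 68.8, 110.2 and 145 FPKM in the control and 103, 98.7 and 154 FPKM with GSK4716 (0.17, left out -0.12 to 0.42).

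Genes known to go up when growth factors are withdrawn, many through FoxO factors, had a median of 0.28 over 16, with 5 higher and 0 lower without overlap. The median ran from 0.15 to 0.39 with 1 library left out, and control replicate 3 (0.12 from the control mean) came close to GSK4716 replicate 3 (0.14). PIK3IP1, an inhibitor of PI3 kinase, was at 4.99, 4.22 and 6.62 FPKM in the control and 12.5, 13.1 and 10.4 FPKM with GSK4716. The treated libraries lie well above the control (1.19, limma-voom adjusted p 0.0422). FOXO1 had 2.27, 1.80 and 2.27 FPKM in the control and 4.71, 4.58 and 3.37 FPKM with GSK4716 and does not overlap (0.96). TXNIP was high in GSK4716 replicate 2 alone, with 61.8, 56.8 and 71.7 FPKM in the control and 66.4, 199 and 54.9 FPKM with GSK4716 (0.51, left out -0.064 to 0.86). ERBB2 overlaps as well, at 116, 100.004 and 162 FPKM and 123, 210.0 and 157 FPKM (0.37, left out 0.17 to 0.57).

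Lysosome and autophagy genes had a median of 0.34 over 12, with 5 higher and 0 lower without overlap. The list as a whole overlaps, with median differences from the control mean of -0.02, -0.36 and 0.36 in the control and 0.36, 0.31 and 0.37 with GSK4716. Its median ran from 0.16 to 0.48 with 1 library left out. WIPI1, which acts where autophagosomes form, was at 8.79, 6.75 and 12.4 FPKM in the control and 19.7, 23.2 and 24.1 FPKM with GSK4716. It is higher in each treated library (1.29, adjusted p 0.0949 in limma and 0.0422 in limma-voom). The autophagy receptor SQSTM1, p62, had 50.3, 32.1 and 99.5 FPKM in the control and 122, 113 and 146 FPKM with GSK4716, and control replicate 3 comes near the treated libraries (1.22). The protease CTSD gave 52.1, 40.01 and 73.5 FPKM in the control and 71.0, 80.3 and 77.2 FPKM with GSK4716, where control replicate 3 lies inside the treated range (0.51, left out 0.30 to 0.74).

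Targets of p53 showed no common direction, with a median of 0.06 (left out -0.041 to 0.22) over 17 and 4 higher and 2 lower without overlap, beside 10.9% and 11.8% of all genes. BBC3, the cell death factor PUMA, was at 1.74, 1.65 and 2.44 FPKM in the control and 5.65, 5.14 and 9.87 FPKM with GSK4716. Every treated library is at least 2 times as high as any control (1.73, limma-voom adjusted p 0.0433). BTG2 overlaps, with 27.8, 25.7 and 21.1 FPKM in the control and 35.9, 34.6 and 17.9 FPKM with GSK4716 (0.19, left out 0.014 to 0.51).

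Ribosome biogenesis genes had a median of -0.44 over 18 (-0.56 to -0.36 with 1 library left out), with 9 lower and 1 higher without overlap. PPAN was lower in each treated library, 1.94, 2.51 and 1.62 FPKM in the control and 1.33, 1.35 and 0.682 FPKM with GSK4716 (-0.83, left out -0.98 to -0.53). GNL3, nucleostemin, was the higher one, at 36.4, 33.7 and 32.4 FPKM in the control and 63.8, 47.9 and 62.7 FPKM with GSK4716 (0.76); 3 small RNA genes lie inside it on the same strand. The nucleolar protein NPM1 had 145, 144 and 125 FPKM in the control and 179, 109 and 141 FPKM with GSK4716 and overlaps (0.02, left out -0.15 to 0.20).

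Glycolysis genes had a median of -0.34 over 15 (-0.38 to -0.23 with 1 library left out), with 4 lower and 1 higher without overlap. TPI1 was at 88.0, 119.9 and 71.9 FPKM in the control and 68.4, 69.1 and 50.8 FPKM with GSK4716, the lowest fold change of the list (-0.55, left out -0.72 to -0.36). The higher gene was HK2, a hexokinase, at 45.5, 39.6 and 51.5 FPKM in the control and 55.4, 83.5 and 62.0 FPKM with GSK4716 (0.54). Hypoxia genes had a median of 0.08 over 12, from -0.032 to 0.28 with 1 library left out. EGLN3, an oxygen sensor, had 69.3, 80.7 and 52.97 FPKM in the control and 28.4, 51.1 and 15.6 FPKM with GSK4716, lower in all 3 (-1.23, left out -1.66 to -0.81, adjusted p 0.205). The secreted peptide gene ADM, at low level, went from 0.364, 0.296 and 0.490 FPKM in the control to 1.29, 0.995 and 1.82 FPKM with GSK4716 (1.58).

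The Notch pathway had a median of -0.00 (left out -0.10 to 0.14) over 13, with 3 higher and 1 lower without overlap, where all genes tested give 10.9% and 11.8%. Its ligand JAG1 was at 2.75, 3.61 and 3.91 FPKM in the control and 6.43, 4.91 and 7.64 FPKM with GSK4716 (0.86). The TGF-beta pathway had 0.23 over 11 (left out 0.083 to 0.25), with 3 higher and 1 lower. Its median difference from the control mean was -0.01, 0.07 and 0.02 in the control libraries and 0.12, 0.19 and 0.10 with GSK4716; the list median was 0.056 with arrayWeights and 0.13 with no filter. ID1, a target of BMP signals, was at 7.10, 14.1 and 2.45 FPKM in the control and 3.30, 1.51 and 2.14 FPKM with GSK4716, and control replicate 3 lies inside the treated range (-1.47, left out -2.13 to -0.89). SMAD6, which inhibits BMP signals, was lower without overlap, 5.82, 8.69 and 4.81 FPKM in the control and 4.01, 4.30 and 2.62 FPKM with GSK4716 (-0.79). Androgen response genes had a median of 0.07 over 13 (left out -0.095 to 0.15) and estrogen response genes one of -0.12 over 10 (left out -0.19 to 0.021), with 2 higher and 2 lower among the former and 0 and 2 among the latter without overlap, to be read beside the same shares. The luminal apocrine markers had a median of -0.04 (left out -0.16 to 0.088).

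Interferon genes vary so widely inside each group that the comparison says little about them. IFI6 was at 442, 180.1 and 31.5 FPKM in the control and 192, 533 and 11.3 FPKM with GSK4716, and ISG15 at 358, 161 and 46.2 FPKM and 159, 253 and 33.7 FPKM. Replicate 3 is the lowest in both groups, and the groups overlapped for all 13 genes tested (median 0.17, or -0.90 to 1.24 with 1 library left out). KLF2, a factor of the pluripotency list, was instead highest in both replicates 3, at 23.6, 23.5 and 86.9 FPKM in the control and 29.3, 17.7 and 115 FPKM with GSK4716 (0.10, left out -0.68 to 0.73).

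Outside the lists, several genes with small p deserve their values. PAWR, a proapoptotic factor, was at 7.17, 6.92 and 7.73 FPKM in the control and 13.3, 14.9 and 15.1 FPKM with GSK4716. Every treated library is close to 2 times the control mean (0.98, adjusted p 0.0938 in limma and 0.0367 in limma-voom). The secreted protease ADAMTS1 had 2.42, 1.80 and 2.16 FPKM in the control and 6.19, 4.75 and 7.28 FPKM with GSK4716 (1.46). TTYH2, a membrane protein at low level, stood at 0.541, 0.379 and 0.563 FPKM in the control and 1.78, 1.74 and 2.09 FPKM with GSK4716, with treated libraries above 3 times the highest control (1.74, limma-voom adjusted p 0.0367). KLHL24, a subunit of a ubiquitin ligase, was at 1.996, 1.66 and 2.34 FPKM in the control and 5.36, 4.12 and 5.28 FPKM with GSK4716 (1.26). GALNT3, which starts mucin-type glycans, had 11.9, 11.4 and 12.9 FPKM in the control and 19.4, 20.3 and 19.9 FPKM with GSK4716, very even inside each group (0.71). PLPP5, a lipid phosphatase, gave 13.6, 10.6 and 12.0 FPKM in the control and 24.5, 21.9 and 21.2 FPKM with GSK4716 (0.90). The long noncoding RNA AL137003.2 was at 2.66, 2.33 and 2.24 FPKM in the control and 4.77, 4.66 and 4.30 FPKM with GSK4716 (0.90, limma-voom adjusted p 0.0548).

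Among genes with a mean of at least 1 FPKM and groups that do not overlap, the 5 largest fold changes in each direction all belong to genes shorter than 200 bases, which make up 570 of the genes tested. Their values rest on few fragments. MIR1180, which lies inside B9D1, held 0 fragments in each control library and 3, 3 and 2 with GSK4716, at or under the 3 fragments that a count of 0 allows, so no fold is given. RNU6-548P, inside SLC1A4, held 1, 0 and 0 fragments in the control and 5, 4 and 8 with GSK4716. The host gene SLC1A4 was itself at 24.03, 18.7 and 30.5 FPKM in the control and 41.2, 43.0 and 40.9 FPKM with GSK4716. RF00004, lower with GSK4716, held 13, 15 and 2 fragments in the control and 1, 0 and 0 with it. The other 7 held at most 12 fragments in any of the 6 libraries.

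Set directly against calcium, which shares the serum-free medium, GSK4716 differed in 419 genes (limma, adjusted p under 0.05, 3.01% of those tested), 102 higher with GSK4716 (0.732%) and 317 lower (2.27%). The paper names ethanol for GSK4716 and DES but not for calcium, so the compounds and the ethanol cannot be told apart here either. The comparisons with control and with calcium share the GSK4716 libraries. The number was 0 without GSK4716 replicate 1 or without replicate 2, and 14 without calcium replicate 2. Of the cholesterol genes 12 of 24 were lower with GSK4716 than with calcium and 0 higher, at a median of -1.19 beside 0.03 for all genes. HMGCS1 was at 156, 154 and 362 FPKM with calcium, above the control, and the difference from GSK4716 was -2.78 on the log2 scale (adjusted p 0.0189). MVD had 39.7, 48.4 and 52.4 FPKM with calcium (-1.90, adjusted p 0.00936), and all 3 values are more than 3 times those with GSK4716. EBP stood at 47.3, 45.7 and 61.4 FPKM with calcium (-1.25, adjusted p 0.0171). In each of these 3 genes the calcium libraries are above the control and the GSK4716 libraries under it, as the plot of 4 treatments shows.

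Replication genes stood lower still with calcium at the median. The G1/S list had a median of 0.56 for GSK4716 minus calcium, with 3 of 42 higher and 0 lower, and the replication list one of 0.55, also with 3 and 0. MCM5 was at 6.98, 8.35 and 3.85 FPKM with calcium, where the lowest library is under and the others are close to the treated values given for GSK4716 (0.38, adjusted p 0.512). TK1 had 21.3, 30.7 and 20.8 FPKM with calcium (0.89, adjusted p 0.0508). Immediate early genes were lower with GSK4716 than with calcium, 8 of 12 called and a median of -2.10. JUN was at 203, 204 and 229.5 FPKM with calcium (-1.77, adjusted p 0.0166). ATF3 had 48.5, 235 and 61.0 FPKM there (-3.47, adjusted p 0.0323), far above both control and GSK4716. Of the unfolded protein response genes 3 of 16 were higher with GSK4716 than with calcium and 0 lower. HERPUD1 was one of them, at 19.0, 17.4 and 18.5 FPKM with calcium (1.36, adjusted p 0.0161), while DNAJB9 at 3.62, 2.52 and 5.51 FPKM missed the threshold (1.37, adjusted p 0.0572).

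**Figure D5:**
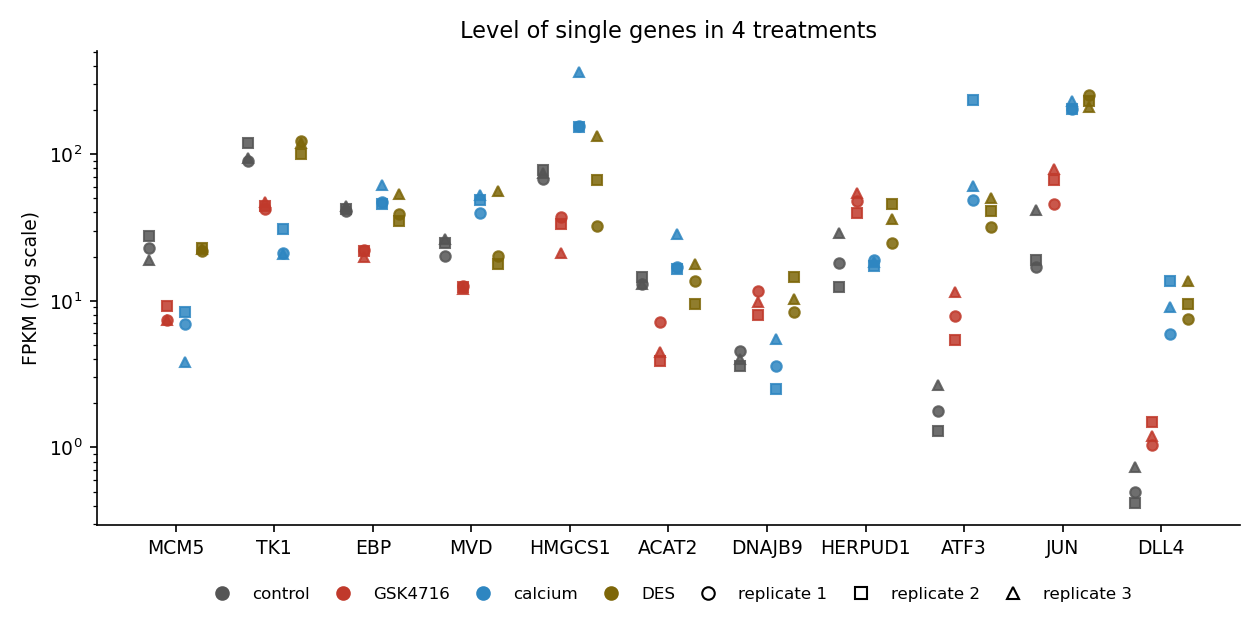
Level of 11 genes in the 3 libraries each of control, GSK4716, calcium and DES, on a log axis. GSK4716 lies under control and calcium for EBP, MVD, HMGCS1 and ACAT2, and between the control and the other treatments for ATF3, JUN and DLL4.

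DES, the receptor antagonist of the labels, differed from GSK4716 in 4358 genes (31.3%; limma, adjusted p under 0.05), 2165 higher with GSK4716 (15.5%) and 2193 lower (15.7%). Without 1 library the number ran from 2102 to 4872. The G1/S list had a median of -1.07 for GSK4716 minus DES, beside 0.03 for all genes, with 25 of 42 called lower and 0 higher. MCM5 was at 22.001, 23.0 and 22.5 FPKM with DES, in the control range (-1.49, adjusted p 0.00174). TK1 had 123, 99.9 and 119 FPKM with DES, close to the control (-1.35, adjusted p 0.00235). Other genes of these lists were not called: PCNA, at 86.8, 50.8 and 62.0 FPKM with DES, was under each control library and near its level with GSK4716 (-0.14, adjusted p 0.659). POLD1 of the replication list had 14.001, 8.82 and 17.5 FPKM with DES (-0.53, adjusted p 0.163), and UBR7 35.1, 29.7 and 22.5 FPKM (0.00). Of the ERR family and coregulator genes 4 of 9 were higher with GSK4716 than with DES and 0 lower. ESRRA was among them (0.88, adjusted p 0.0390), at 16.7, 10.4 and 15.9 FPKM with DES, under each control library. Against control the log2 fold change of ESRRA with GSK4716 was 0.05. ERR metabolic targets had a median of -0.22, with 0 higher and 5 lower of 23. Heat shock genes gave the widest gap, a median of -2.53 with 12 of 13 lower; HSPB1 was at 1473, 1226 and 766 FPKM with DES and 81.9, 98.7 and 176 FPKM with GSK4716 (-3.31, adjusted p 0.00235). DNAJB9, at 8.35, 14.5 and 10.3 FPKM with DES, was close to its level with GSK4716 (-0.15, adjusted p 0.676). The medium in which DES was given alone is not clear from the labels, so DES and its medium cannot be told apart in these values.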

How the data were processed

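FPKM values, gene lengths and annotation are those deposited by the authors; the labels name HISAT2 2.0.5, featureCounts 1.5.0-p3 and GRCh38.p14. Within a library, the products of FPKM and gene length are all multiples of 1 step; dividing by it gave values within 0.1 of a whole number of fragments for 100% of the values, with totals between 15246217 and 28424805 per library of the comparison. A count of 0 allows up to 3 fragments.

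The 3 GSK4716 and 3 control libraries were compared with limma 3.58.1 in R 4.3.3 (lmFit and eBayes with a trend, two-sided) on log2(FPKM + 0.1). This took in 13937 genes whose mean was at least 0.5 FPKM. The p was adjusted by the Benjamini-Hochberg method over them with a threshold of 0.05. The same genes were used against calcium and against DES. limma-voom on recovered fragments was an alternative, beside a pseudocount of 1, no filter, a mean of at least 2 FPKM, 3 other scalings, all 7 groups in 1 fit, arrayWeights, a replicate block and each library left out. Genes under the filter were tested with an exact permutation test. Python 3.11.15 made the tables, promoter searches and figures, with numpy 2.4.6, pandas 2.3.3, scipy 1.17.1 and matplotlib 3.10.9. The steps were tested on simulated data. No 2 of the 12 control, GSK4716, calcium and DES libraries held the same number of fragments for more than 2.45% of genes.

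Genes are named by a rule: ESRRA, ESRRB, ESRRG, RPLP0 and the qPCR genes; among genes with a mean of at least 1 FPKM and groups that do not overlap, the 10 with the smallest p and the 5 with the largest log2 fold change in each direction; and in each list the 2 members with the highest mean FPKM and the 2 with the largest change. Some genes that meet the rule are not reported here. Other genes were chosen after their values were seen. The members and the 32 lists were chosen with earlier results of these data known. The cadmium groups and DES with calcium were used only in the fit of all groups.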

Additional observations from a re-analysis of the deposited data

How the results depend on the processing

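For GSK4716 against control, the number of genes called stayed at 0 with a pseudocount of 1, with no filter, with a mean of at least 2 FPKM, with the 3 other scalings and with all 7 groups in 1 fit. It was 1286 with arrayWeights and 89 with limma-voom on recovered fragments. With 1 library left out it was 106 without control replicate 3 and 0 in every other case. The number at an unadjusted p under 0.05, 2339 as planned, was 748 with all 7 groups, 4306 with arrayWeights and 1311 to 3075 with 1 library left out (1311 without control replicate 2). The number whose groups do not overlap, 3171 as planned, was 3778 to 5998 with 1 library left out, since fewer libraries are easier to separate.

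A pairing by replicate number was not shown for all 3 numbers. Same-numbered GSK4716 and control libraries had correlations of 0.141, -0.0228 and 0.208 between their deviations from the group means. For replicates 1 and 3 these were higher than any between different numbers (at most 0.0902), while GSK4716 replicate 2 correlated best with another number. With the replicate block 0 genes were called against control (smallest adjusted p 0.0624), 168 against calcium and 3257 against DES.

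Against calcium, where 419 genes were called as planned, limma-voom called 704, and 0 to 515 were called with 1 library left out. The number was 0 without GSK4716 replicate 1 or 2, 81 without GSK4716 replicate 3, 176 without calcium replicate 1 and 14 without calcium replicate 2. Against DES, with 4358 as planned, the range was 2102 to 4872, with the numbers 2279, 2417 and 2102 without GSK4716 replicates 1, 2 and 3 and 2525 without DES replicate 2.

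Of the 512 list medians recomputed, 17 in 10 lists moved by more than 1 standard deviation between libraries. With arrayWeights the median was -0.12 for the ERR family, 0.50 for the pluripotency genes, 0.86 for the immediate early genes and 0.056 for the TGF-beta pathway, for which it was 0.13 with no filter. With 1 library left out the medians ran from -0.73 to -0.53 for cholesterol synthesis, -0.64 to -0.28 for fatty acid synthesis, 0.22 to 0.48 for the unfolded protein response and 0.40 to 0.73 for immediate early genes. They ran from -0.046 to 0.24 for MAP kinase feedback, 0.083 to 0.25 for the TGF-beta pathway, -0.10 to 0.14 for the Notch pathway and -0.041 to 0.22 for p53 targets.

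Of 128 named genes tested, 110 kept their sign under every alternative and 57 had an adjusted p under 0.05 in at least 1 of arrayWeights (57), limma-voom (27) and the fit without control replicate 3 (27). The other 18 took the opposite sign in at least 1 fit. RPLP0 was at 0.036 with quantile normalization and 0.047 with arrayWeights. With arrayWeights BTG2 was at -0.016, IFIT2 at -0.78 and IFIT3 at -1.17. SORD was at 0.0015 with median-ratio scaling and 0.014 with limma-voom, and NPM1 at -0.016 with quantile normalization. With 1 library left out the log2 fold changes ran from -0.14 to 0.23 for ESRRA, -0.033 to 0.041 for RPLP0, -0.68 to 0.73 for KLF2, -0.32 to 0.065 for XBP1, -0.11 to 0.034 for CALR, -0.064 to 0.63 for NQO1, -0.12 to 0.42 for IER3, -0.058 to 0.17 for HES4 and -0.23 to 0.036 for NOTCH3. They ran from -0.064 to 0.86 for TXNIP, -0.13 to 0.21 for SORD, -0.15 to 0.20 for NPM1, -1.54 to 1.24 for IFI6, -1.11 to 0.54 for ISG15, -0.070 to 1.81 for IFIT2, -0.35 to 1.59 for IFIT3 and -1.05 to 0.23 for MT-ATP8. The cause of these differences was not tested.

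The limits are those of 3 libraries a group and a control of unstated medium and vehicle. GSK4716, serum withdrawal and ethanol cannot be told apart, and the share of the difference that each carries was not tested. FPKM carries the authors' own scaling. Genes of a few fragments, such as those shorter than 200 bases, have fold changes that depend on the pseudocount, and fragments of overlapping genes cannot be told apart. At this depth 1 fragment is a large step for genes under 0.1 FPKM, ESRRB among them.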

Other observations

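Genes called by limma-voom outside the G1/S, replication and cholesterol lists number 28 among the 53 lower with GSK4716. The genes named here were chosen after their values were seen. CHAF1A, which loads histones behind the replication fork, was at 14.2, 20.04 and 11.5 FPKM in the control and 4.98, 6.84 and 6.61 FPKM with GSK4716, with no overlap (log2 fold change -1.27, limma-voom adjusted p 0.0448). The histone gene H2AFX stood at 134, 179 and 135 FPKM in the control and 76.0, 70.3 and 86.8 FPKM with GSK4716 (-0.94). The tubulin TUBB had 252, 324 and 196 FPKM in the control and 125, 97.1 and 95.7 FPKM with GSK4716, lower in each treated library (-1.26). CBS, an enzyme of the transsulfuration pathway, gave 11.7, 11.3 and 11.8 FPKM in the control and 7.85, 6.61 and 6.78 FPKM with GSK4716 (-0.71). EPHA4, an ephrin receptor, was at 5.84, 7.1999 and 4.25 FPKM in the control and 1.62, 2.36 and 1.52 FPKM with GSK4716 (-1.60).

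The next 5 are among the 36 limma-voom calls higher with GSK4716, are on no list and were also chosen after their values were seen. ERN1, the stress sensor IRE1 of the endoplasmic reticulum, was at 4.61, 3.93 and 6.37 FPKM in the control and 11.7, 10.2 and 13.1 FPKM with GSK4716. All 3 treated libraries lie above the control (1.24, limma-voom adjusted p 0.0422). KDELR3, a receptor that returns proteins to the endoplasmic reticulum, had 3.62, 3.04 and 4.49 FPKM in the control and 8.03, 8.18 and 10.5 FPKM with GSK4716 (1.25). GFPT1, the entry enzyme of hexosamine synthesis, stood at 14.9, 12.3 and 17.9 FPKM in the control and 37.5, 29.8 and 32.3 FPKM with GSK4716 (1.15). CREBRF, a regulator of the unfolded protein response, gave 0.542, 0.522 and 0.672 FPKM in the control and 1.45, 1.13 and 1.38 FPKM with GSK4716 (1.07). The growth arrest gene GADD45A was at 12.1, 13.04 and 13.8 FPKM in the control and 26.9, 21.5 and 33.6 FPKM with GSK4716, again with no overlap (1.05).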
